A study of Mus musculus with 18 samples.

Results

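The comparison concerns mouse lung fibroblasts that had entered a collagen gel and asks how their RNA changed between 72 and 96 hours inside the assay. The members are the 5 samples titled invading at 96 hours and the 4 titled invading at 72 hours, 9 of the 18 samples of the series, compared across 19938 genes. Cells of the MLg 2908 line were plated on top of a collagen matrix, and the cells that had moved into it (invading fraction) were separated from those that had stayed on top (non-invading fraction). Whole-transcript Affymetrix arrays for mouse genes measured the RNA, and the deposited values are log2 signals per probe set. All 18 samples share the cell line, taken from newborn lung of the ddY strain with wild-type genotype. One treatment entry, common to all of them, names TGFB1 beside the invasion assay, while the titles give only fraction and time, so whether any sample had received it is not settled by them. The paper describes spontaneous invasion for the arrayed cells, and its array heatmap legend explains n.t. as non-treated. The labels call the samples biological replicates. A gene was represented by its brightest probe set among those with exactly 1 gene symbol, and it passed when the adjusted p of limma, corrected over all 35556 probe sets, lay below 0.1. The non-invading samples, 4 at 72 hours and 5 at 96 hours, show where the change in the gel differed from the change on top of it. They also entered the main fit, and so the shared estimate of the spread behind its p-values.

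Fibroblasts are the main producers of collagen and other matrix proteins in the lung, and they enter a matrix by cutting it with proteases, gripping it with integrins and pulling on it with actin and myosin. Cells kept in culture for days also change their growth rate, their lipid synthesis and their stress responses as medium and neighbours change. The gene groups below follow these roles, from small RNAs and ribosome assembly over cell division and lipids to matrix, signalling and defence genes.

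Within a group the arrays resembled each other closely, with a mean Pearson's r over genes of 0.9949 to 0.9971, and the median signal of the genes lay between 7.09 and 7.15 in all 18 samples. Fibroblast markers stood high in the invading samples (mean of 14 markers per sample 11.16 to 11.35 at 72 hours and 11.26 to 11.37 at 96 hours). Sample means of the markers of epithelial, endothelial, leukocyte, muscle and neural, mesothelial and fat cells lay between 5.5 and 6.71 at 72 hours and between 5.53 and 6.63 at 96 hours, below the median gene (7.09 to 7.15) in every sample. Single markers went the other way. At 72 hours the mesothelial marker Msln (9.85), the epithelial Krt8 (7.88) and Aqp5 (7.23) and the macrophage marker Cd68 (7.51) lay above the median gene. The fibroblast markers Thy1 (6.26) and Fap (4.57) lay below it. Of the 10 leukocyte markers only Lyz2, a lysozyme of macrophages, rose, from 5.35 to 5.75 in the means (adjusted p = 0.034 from limma, but 0.125 without invading 72h replicate 2), and 1 fell. Of these dim markers 4 of 13 epithelial, 1 of 10 endothelial and 1 of 7 mesothelial ones also passed lower. Another 1 of 8 muscle and neural and 1 of 6 fat cell markers passed higher. Calls thus occur at signals this low. Neither file nor label gives a day of hybridization, so a batch that ran with time and time itself cannot be told apart.

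Of the 19938 genes, 6942 passed between the times in the invading fraction (34.8%), 3622 higher at 96 hours (18.2%) and 3320 lower (16.7%). Most changes were small: 528 genes rose by more than 1.5-fold (2.65%) and 77 fell by more than that (0.386%), while 33 rose and 17 fell by more than 2-fold. In 4702 genes (23.6%) no sample of one time reached into the range of the other, and the first principal component of the 9 invading samples, with 52.4% of the variance, placed the 72-hour samples between 10.7 and 25 and the 96-hour samples between -21.8 and -12.2. Replicate 3 at 72 hours lay nearest to the later samples. In bulk RNA, a lower share of cells with a transcript and less of it per cell cannot be told apart. The change followed the signal level of the gene: with the genes in 5 equal groups by signal, 1.23% rose and 11.4% fell in the dimmest, and 36.9% rose and 18.5% fell in the brightest. The share over all genes is therefore a low yardstick of rises for lists of bright genes. The median signal of the brightest group was 10.33. In the second brightest, with a median signal of 8.76, 32.5% rose and 20.5% fell. At 72 hours the list medians were 10.54 for heat shock, 10.57 for ER chaperones, 10.6 for NRF2 targets and 10.56 for contractile genes. Those of lysosome and respiratory chain genes were 10.86 and 10.67, and that of ribosomal protein genes was 12.48.

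**Figure D1:**
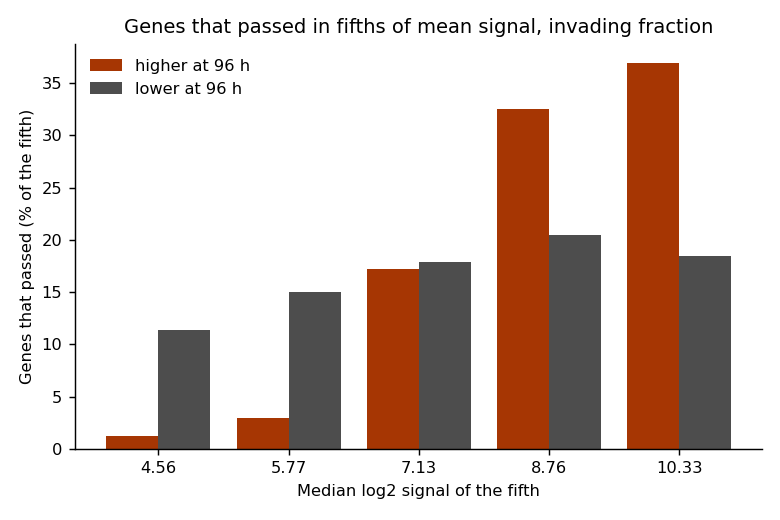
Share of genes that passed between 72 and 96 hours in the invading fraction (vertical axis, % of the genes in each group), for genes in 5 equal groups by the average of the mean log2 signals of both invading groups (horizontal axis, median of each group). Bars give genes higher and genes lower at 96 hours; the share that rose climbs from 1.23% in the dimmest to 36.9% in the brightest group, whereas the share that fell stays between 11.4% and 20.5%.

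The genes with the steepest rise inside the gel were led by secreted matrix proteins. Ogn (osteoglycin), a small leucine-rich proteoglycan, gave log2 signals of 6.78, 7.26, 8.4 and 8.48 in the 4 samples at 72 hours and 8.83, 9.3, 9.69, 9.21 and 10.11 in the 5 at 96 hours. Every later sample lay above every earlier one, and the 72-hour samples were spread widely. The rise was 1.7 on the log2 scale (SE 0.33, 3.25-fold, adjusted p = 0.001 from limma, n = 4 and 5). On top of the gel Ogn also rose, by 1.27 (adjusted p = 0.011 from limma), from a mean of 10.07 to 11.34. The difference between the fractions, 0.42, did not pass (adjusted p = 0.85). Dpt (dermatopontin), which binds collagen and decorin, stood at 5.88, 6.2, 5.79 and 5.79 at 72 hours and at 7, 7.81, 7.01, 7.29 and 7.68 at 96 hours. The groups did not overlap, and the earlier samples lay close together. The rise of Dpt was 1.44 (SE 0.18, 2.72-fold, adjusted p = 1.7e-05 from limma). On top of the gel its change was 0.21 (adjusted p = 0.47), but the difference between the fractions, 1.24 with SE 0.25, did not pass (adjusted p = 0.14).

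Scoc, a coiled-coil protein of the Golgi with a part in autophagy, was measured at 7.78, 7.53, 8.15 and 7.43 at 72 hours and at 8.9, 9.21, 9.01, 9.03 and 9.05 at 96 hours. The later samples lay close together and all above the earlier ones. Scoc rose by 1.32 (SE 0.12, adjusted p = 1.3e-06 from limma), against 0.45 on top of the gel, and the difference of 0.87 (SE 0.17) again stopped short of the threshold (adjusted p = 0.14). The other 9 genes at the top without overlap were Pcdhb9, a clustered protocadherin (1.28), Tceal1 (1.26), Zfp931, a zinc finger gene (1.24), Fibin, a secreted factor known from fin bud initiation (1.24), the aldo-keto reductase Akr1c14 (1.23), Bet1, a SNARE of transport between ER and Golgi (1.21), the kinetochore gene Spc25 (1.21), Llph (1.2) and Cdkn2aip, a binding partner of the tumour suppressor ARF (1.2). Llph had the smallest error of these, with SE 0.05, and adjusted p lay between 1.2e-09 and 0.00039. All 9 also rose on top of the gel, by 0.44 to 1.27. Pcdhb9, Zfp931 and Akr1c14 have close relatives in the genome whose RNA can reach the same probes, and their values are uncertain for that reason.

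**Figure D2:**
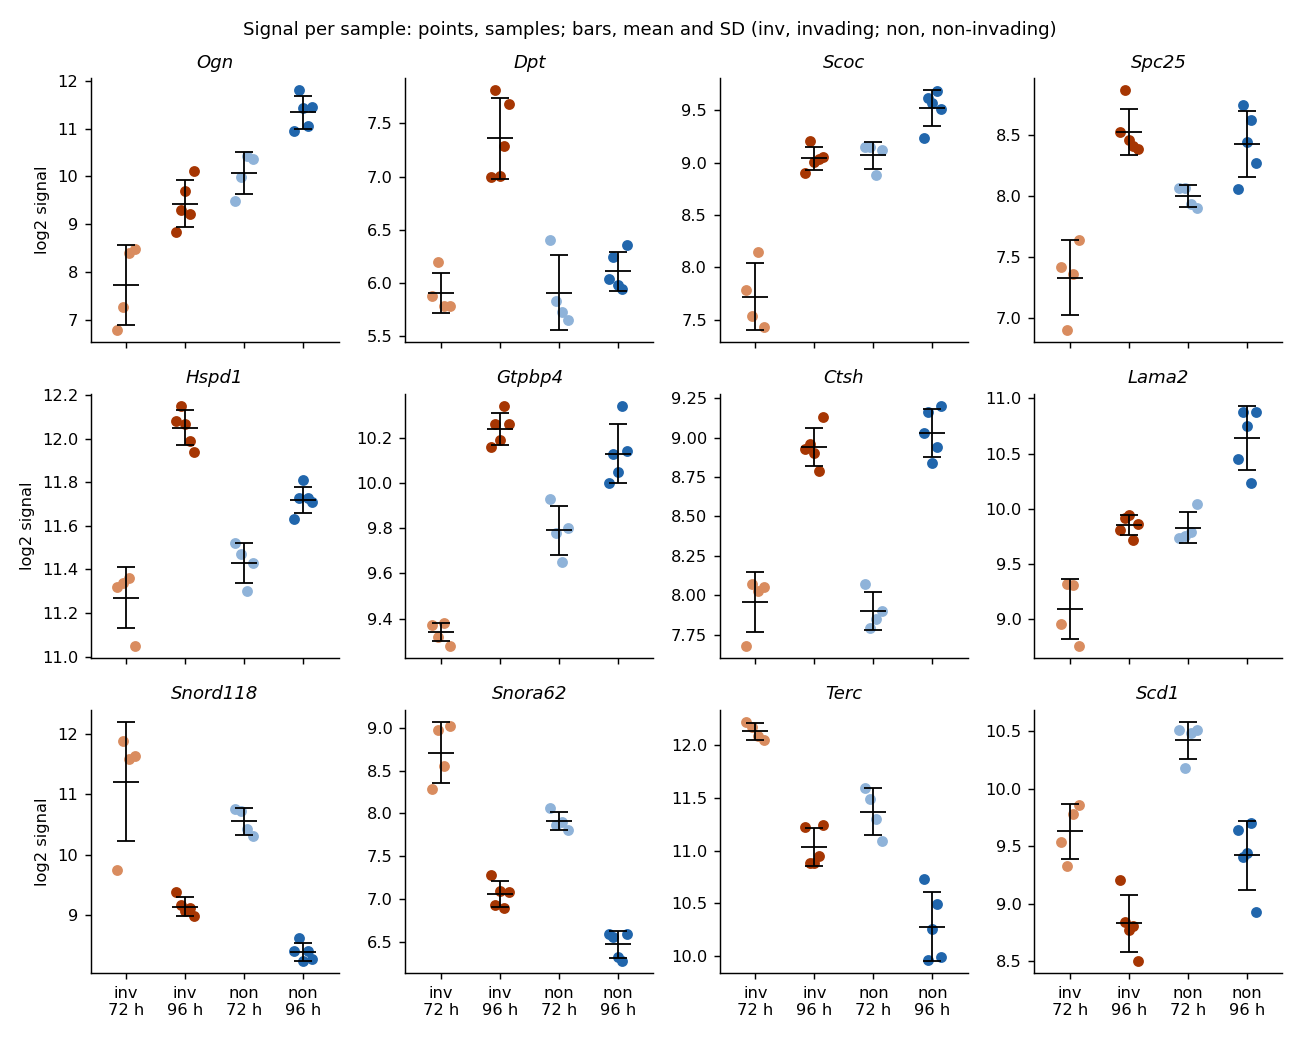
Log2 signal (vertical axes) of 12 genes in each sample of the 4 groups (horizontal axes), with points for samples and bars for mean and SD. In the invading samples Ogn, Dpt, Scoc, Spc25, Hspd1, Gtpbp4, Ctsh and Lama2 lie higher at 96 than at 72 hours and Snord118, Snora62, Terc and Scd1 lower, in each case without overlap; Dpt stands apart at 96 hours in the gel, with a mean of 7.36 against 6.11 on top of it.

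The steepest falls were almost all in short nuclear RNAs. The 12 lowest genes without overlap were 8 small nucleolar RNAs, the minor spliceosome RNA Rnu12, the U3 RNA Rnu3a, the telomerase RNA Terc and the snoRNA host transcript Snhg17. Small nucleolar RNAs guide the chemical modification and cutting of ribosomal RNA, and most are cut out of the introns of other genes. Snord118 (U8), which acts in the processing of the large ribosomal subunit's RNA, stood at 9.74, 11.88, 11.59 and 11.64 at 72 hours and at 9.38, 9.16, 9.06, 9.12 and 8.99 at 96 hours. One sample at 72 hours, replicate 1, lay far below the other 3 and near the later ones. The fall was -2.07 on the log2 scale (SE 0.29, adjusted p = 6.3e-05 from limma). Snora62 gave 8.28, 8.98, 8.55 and 9.02 at 72 hours and 7.28, 6.93, 7.09, 6.9 and 7.08 at 96 hours. The 2 times were separated by a clear gap, with a change of -1.65 (SE 0.13, adjusted p = 3.6e-07 from limma).

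Terc had 12.22, 12.17, 12.09 and 12.05 at 72 hours and 11.22, 10.88, 10.88, 10.95 and 11.24 at 96 hours. It was bright at both times and its groups did not overlap (-1.1, SE 0.14, adjusted p = 2.6e-05 from limma). Snora33 changed by -1.52, Snora74a by -1.5, Snord15a by -1.38, Snord53 by -1.37, Snhg17 by -1.26, Snord47 by -1.22, Snora23 by -1.19, Rnu12 by -1.13 and Rnu3a by -1.13, with adjusted p from 1.3e-07 to 0.00023. Of 54 measured small nucleolar and Cajal body RNAs 32 fell (59.3%, beside 16.7% of all genes), 0 rose and 22 did not pass. The median change was -0.44 against -0.03 over all genes. The same list gave 26 lower and 0 higher members on top of the gel, with a median of -0.34. Without invading 72h replicate 3, 24 members fell and 4 rose.

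For 30 of the 54 small RNAs exactly 1 measured gene spans their position in the RefSeq annotation (GRCm38.p6), which gives 26 host genes. Their median change was 0.12, with 10 higher and 3 lower. Many hosts were bright, such as Eef2 (13.49) and Rpl10 (13.72) at 72 hours. Among all genes 18.2% rose and 16.7% fell, and in the brightest signal group 36.9% and 18.5%. The 30 small RNAs had a median of -0.49, and 26 of the 30 had a lower value of the change than their host. The 18 that fell lie in 17 hosts, of which 8 rose and 3 fell (median 0.13). Snora23 changed by -1.19 within Ipo7, a nuclear import receptor, which rose by 0.42. Snord82 changed by -0.5 and Snora75 by -0.85 within Ncl (nucleolin, a protein of the nucleolus), which rose by 0.34. Snord47 fell by 1.22 within Gas5, a non-coding host, and Gas5 changed by -0.41 (adjusted p = 0.0011 from limma); another probe set of Gas5 passed with the opposite sign, and the mean of its probe sets did not pass (adjusted p = 0.757). The annotation table gives no strand, so hosts were assigned by position alone.

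**Figure D3:**
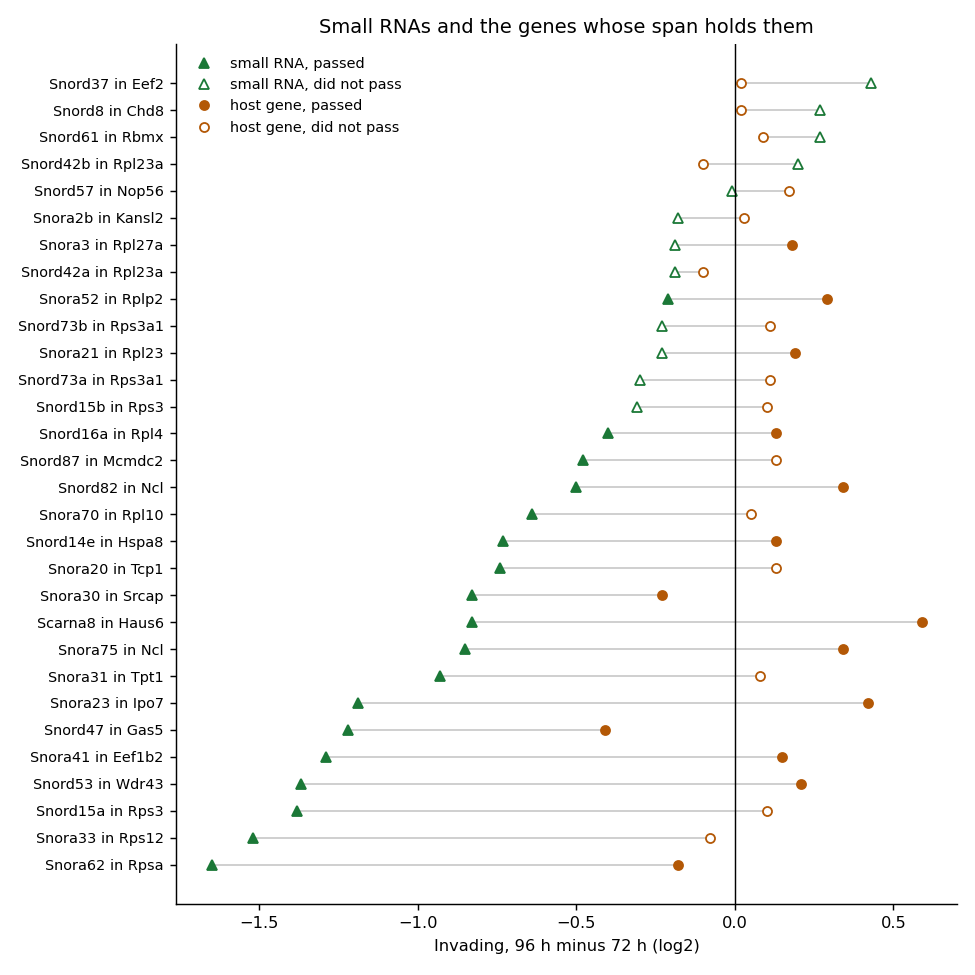
Log2 change from 72 to 96 hours in the invading fraction (horizontal axis) of 30 small nucleolar or Cajal body RNAs (triangles) and of the gene whose span holds each (circles); filled symbols passed the test. The triangles reach from -1.65 to 0.43 while the host genes stay between -0.41 and 0.59.

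Ribosome biogenesis genes encode the factors that assemble ribosomes. Of 59 of them 31 were higher, 4 lower and 24 did not pass (52.5% higher, beside 18.2% of all genes, median 0.21), and on top of the gel 19 were higher and 8 lower (median 0.07). Gtpbp4, a GTPase of large subunit assembly, stood at 9.37, 9.32, 9.38 and 9.28 at 72 hours and at 10.16, 10.26, 10.19, 10.34 and 10.26 at 96 hours. Both groups were tight and far apart, and the rise was 0.9 (SE 0.07, adjusted p = 2.6e-07 from limma). Mak16 rose by 0.84, the pseudouridine synthase Dkc1 by 0.8 and its partner Gar1 by 0.63, 2 proteins of the particles that carry H/ACA snoRNAs. Of the 61 ribosomal protein genes 11 were higher and 11 lower, with a median of -0.01. That is 18% each, near the 18.2% and 16.7% of all genes. In the brightest signal group 36.9% rose and 18.5% fell, so the share that rose was lower than there. The lower count was 5 with median centring and 18 with quantile normalization again, and the 4 largest changes were falls, of Rpl14 (-0.67), Rpl24 (-0.46), Rpl13 (-0.43) and Rps29 (-0.39). Ribosomal protein genes have many processed copies in the genome, which makes single values uncertain. The count of 11 higher went to 7 without invading 72h replicate 1 and to 6 without replicate 4, and that of 11 lower to 7 without either replicate 1 or 2 at 72 hours and to 6 without replicate 1 at 96 hours.

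Gtpbp4 was also 1 of the 3 genes, 0.015% of those tested, whose change in the gel differed from that on top of it. It rose by 0.9 in the gel and by 0.34 on top, a difference of 0.57 (SE 0.1, adjusted p = 0.084 from limma). Sarnp, which takes part in the export of mRNA from the nucleus, had 10.03, 10.3, 10.52 and 10.34 at 72 hours and 11.26, 11.36, 11.22, 11.24 and 11.2 at 96 hours in the gel. Its rise of 0.96 compared with 0.37 on top (difference 0.59, SE 0.11, adjusted p = 0.084 from limma). Pdcl, a phosducin-like partner of G protein subunits in folding, went from 8.86, 8.81, 8.9 and 8.87 to 9.66, 9.65, 9.61, 9.82 and 9.49. The difference for Pdcl was 0.45 (SE 0.08, adjusted p = 0.094 from limma), from 0.79 in the gel and 0.34 on top. All 3 were lower in the gel than on top at 72 hours, by group means of 9.34 against 9.79 for Gtpbp4, 10.3 against 11.07 for Sarnp and 8.86 against 9.04 for Pdcl. This count was unstable: it was 0 with the replicate number as a block, and ranged from 0 to 16 as single samples were left out. At 96 hours the numbers tied the fractions together, with r of 0.146 to 0.305 between same-numbered samples and each of 5 best with its own number, whereas at 72 hours r was -0.019 to 0.086 (1 of 4). The fit of group means ignored this tie. The block spanned both times, so it did not treat the 96-hour pairing alone.

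Many genes of cell division were higher in the gel at 96 hours. Of 70 genes of G2 and mitosis 31 were higher and 2 lower (44.3% and 2.86%, beside 18.2% and 16.7% of all genes), with a median change of 0.26. Of 67 genes of DNA replication and S phase 22 were higher and 5 lower (32.8% and 7.46%), with a median of 0.13. The 5 went to 2 without invading 72h replicate 4 and to 3 without replicate 1 at 72 hours or replicate 1, 3 or 5 at 96 hours. Median signals of the 2 lists at 72 hours were 8.36 and 8.62. In the second brightest signal group (median 8.76) 32.5% rose and 20.5% fell, so the rises of the S phase list were near that share. On top of the gel the counts ran the other way, with 4 higher and 14 lower in the first list (median -0.12) and 7 and 18 in the second (median -0.14). The difference between the fractions was above 0 for 68 of the 70 and 62 of the 67 genes, beside 48.2% of all genes, and its medians were 0.37 and 0.235. By limma it passed for 0 genes of either list, with 37 and 23 at an unadjusted p under 0.05, all of them above 0, against 1623 of all genes (8.14%). Members of a list are measured in the same samples and are not independent. Of the 70, 16 were higher without invading 72h replicate 2 and 19 without invading 96h replicate 1.

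Spc25, a subunit of the kinetochore complex that holds microtubules, had 7.42, 6.9, 7.36 and 7.64 at 72 hours and 8.53, 8.87, 8.46, 8.41 and 8.39 at 96 hours. The groups did not overlap, and the rise was 1.21 (SE 0.15, adjusted p = 1.4e-05 from limma) against 0.44 on top. Cep55, needed for the last cut between daughter cells, rose by 0.68 (SE 0.15), the kinesin Kif20b by 0.6 (SE 0.13) and the kinetochore motor Cenpe by 0.58 (SE 0.14). Rfc4, part of the clamp loader of DNA polymerases, stood at 8.98, 9.02, 9.04 and 9.06 at 72 hours and at 9.89, 10.19, 9.94, 9.98 and 10.16 at 96 hours. It rose by 1.01 (SE 0.12, adjusted p = 1.2e-05 from limma) with almost no spread at the earlier time. The primase Prim1 rose by 0.81, the replication fork protein Tipin by 0.71 and the clamp loader subunit Rfc3 by 0.66. Replication-dependent histones, whose RNA lacks a poly(A) tail, fell more often than they rose in the gel. Of 26, 1 was higher and 11 lower (3.85% and 42.3%, beside 18.2% and 16.7% of all genes, median -0.14). The 11 went to 7 without replicate 1 and to 6 without replicate 4 at 72 hours, and to 7 without replicate 1 at 96 hours. On top of the gel 0 were higher and 14 lower (median -0.31). The difference between fractions was above 0 for 22 of the 26 (median 0.21), as for most genes of the lists above, and passed for 0. Among 32 p53 targets and CDK inhibitors 10 rose and 1 fell (31.2% and 3.12%). The shares were 18.2% and 16.7% of all genes and 32.5% and 20.5% of the second brightest signal group. The rises among the 32 were led by the mitotic spindle protein Ckap2 (0.63), the growth arrest gene Gadd45a (0.51) and the CDK4/6 inhibitor Cdkn2c (0.48).

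**Figure D4:**
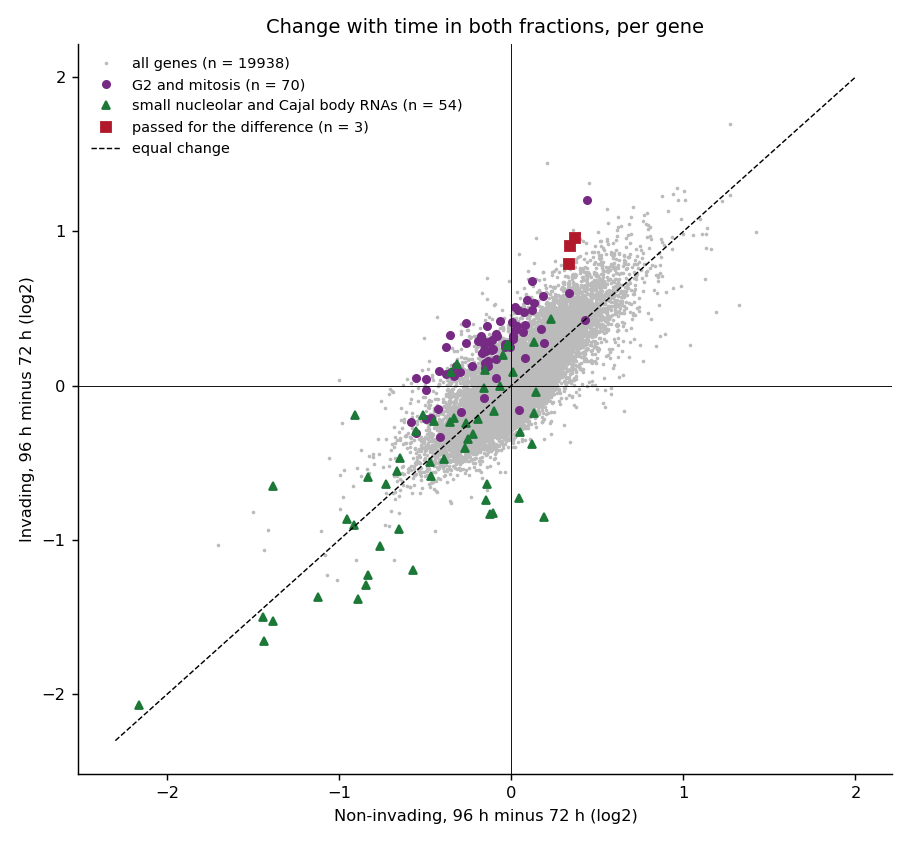
Log2 change from 72 to 96 hours per gene, non-invading fraction on the horizontal and invading fraction on the vertical axis; the dashed line marks equal change. The genes of G2 and mitosis lie mostly above the line (68 of 70), the small nucleolar and Cajal body RNAs run down to -2.07, and the 3 squares are Sarnp, Gtpbp4 and Pdcl.

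Promoters of mitotic genes often carry the cell cycle homology region, TTTGAA, close to the start of transcription. To show how it sits in the genes that led the list, 100 bases of the RefSeq promoter (GRCm38.p6) are given for the 3 members with the largest rise whose promoter holds it ahead of base 30 of the transcript, 5′ to 3′ on the gene's strand, with the motif in capitals on either strand. They are chr2:69206184-69206283 (minus strand), chr19:38054914-38055013 (plus) and chr19:34922288-34922387 (plus), each starting 70 bases before the gene's start.
Spc25: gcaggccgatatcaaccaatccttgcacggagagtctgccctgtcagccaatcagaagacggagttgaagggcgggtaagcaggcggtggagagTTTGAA
Cep55: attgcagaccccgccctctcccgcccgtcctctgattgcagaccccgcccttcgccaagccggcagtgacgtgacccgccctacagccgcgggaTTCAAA
Kif20b: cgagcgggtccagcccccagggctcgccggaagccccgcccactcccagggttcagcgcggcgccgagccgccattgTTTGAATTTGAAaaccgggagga
The motif was present in 45 of 62 promoters of the list (72.6%), which belong to 58 genes, 41 of them with a match, and in 14.8% of all 19177 promoters of 15614 measured genes, counting both strands over 300 bases. A gene with several start sites has several promoters here, and some measured genes have none. A match describes the letters of the window and no more.

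Heat shock genes, which encode chaperones that refold proteins, rose in 14 of 21 cases in the gel and fell in 0 (66.7%, median 0.31). Among all genes 18.2% were higher, and in the brightest signal group 36.9%. On top of the gel 8 rose and 1 fell (median 0.09), and the difference between fractions passed for 0 genes by limma, with 5 at an unadjusted p under 0.05. Hspd1, the chaperonin HSP60 of mitochondria, had 11.32, 11.34, 11.36 and 11.05 at 72 hours and 12.08, 12.15, 12.07, 11.99 and 11.94 at 96 hours. Its groups were 0.78 apart (SE 0.07, adjusted p = 7.9e-07 from limma), compared with 0.29 on top of the gel. Dnajb4, a co-chaperone of HSP70, went from 10.14, 10.19, 10.44 and 10 to 10.96, 11.18, 10.95, 11.08 and 10.92. It rose by 0.83 (SE 0.1), as did Chordc1, a partner of HSP90 (SE 0.11), and the transcription factor Hsf2 rose by 0.75 (SE 0.08). Heat shock factors bind inverted repeats of GAA, and the motif GAANNTTC was found in 11 of 23 promoters of the list (47.8%) against 6.72% of all. The 23 belong to 17 of the 21 genes, 10 of them with a match.
The windows shown are those of the 3 members with the largest rise that hold it ahead of base 30 of the transcript, with first bases at -70, -179 and -144 relative to the gene's start, chr9:18292197-18292296 (plus), chr1:55088012-55088111 (minus) and chr17:34972201-34972300 (minus), with matches in capitals.
Chordc1: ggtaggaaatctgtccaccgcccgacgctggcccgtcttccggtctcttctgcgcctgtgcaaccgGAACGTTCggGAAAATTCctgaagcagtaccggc
Hspd1: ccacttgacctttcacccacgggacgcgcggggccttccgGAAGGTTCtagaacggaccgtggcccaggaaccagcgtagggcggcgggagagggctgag
Hspa1a: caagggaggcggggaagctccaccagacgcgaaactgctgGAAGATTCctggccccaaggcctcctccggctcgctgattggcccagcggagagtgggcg
Hspa1a, the inducible HSP70, rose by only 0.48 (SE 0.17, adjusted p = 0.045 from limma), and the adjusted p went to between 0.102 and 0.134 without replicate 1 or 2 at 72 hours or replicate 2 or 4 at 96 hours. It has a nearly identical neighbour gene, which its probes may not tell apart.

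Of 28 genes for ER chaperones and secretion 14 were higher, 3 lower and 11 did not pass (50% higher, median 0.16). Among all genes 18.2% were higher, and in the brightest signal group 36.9%. Fkbp14, a prolyl isomerase that helps collagen to fold, had 9.37, 9.3, 9.47 and 9.37 at 72 hours and 10.08, 10.27, 10.28, 10.14 and 10.42 at 96 hours. The groups did not overlap and differed by 0.86 (SE 0.08, adjusted p = 1.4e-06 from limma). The co-chaperones Dnajb9, Dnajb11 and Dnajc3 of the same compartment rose by 0.66, 0.64 and 0.59. Of 35 NRF2 targets and glutathione genes 15 rose, 5 fell and 15 did not pass (42.9% higher, beside 36.9% of the brightest signal group, median 0.13). Among those that rose were the glutathione transferases Gsta4 (0.72) and Gsta3 (0.68) and the quinone reductase Nqo1 (0.71). Gsta3 stood at 6.24 and 6.91 in the means, and its change on top of the gel was -0.01 (difference adjusted p = 0.42). The ATF4 and amino acid genes showed no common direction, with 6 of 40 higher and 7 lower (15% and 17.5%, beside 18.2% and 16.7% of all genes). The count of 7 went to 4 without invading 72h replicate 2 or 96h replicate 3.

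Many genes of cholesterol synthesis and some of fatty acid synthesis had less RNA at 96 hours. Of 20 genes for cholesterol synthesis and uptake 14 were lower and 0 higher (70%, beside 16.7% of all genes), with a median change of -0.4, and of 32 genes of fatty acids and lipid storage 10 were lower, 1 was higher and 21 did not pass. In the cells on top, 15 of 20 and 15 of 32 were lower. Srebf2, the transcription factor that drives the cholesterol pathway, had 10.5, 10.33, 10.59 and 10.66 at 72 hours and 10.01, 9.84, 9.82, 9.83 and 9.78 at 96 hours. It changed by -0.66 (SE 0.07, adjusted p = 5.6e-06 from limma), with no overlap. Scd1, which desaturates fatty acids, had 9.54, 9.33, 9.78 and 9.86 at 72 hours and 9.21, 8.84, 8.77, 8.81 and 8.5 at 96 hours. It changed by -0.8 (SE 0.16, adjusted p = 0.001 from limma). The sterol reductase Tm7sf2 changed by -0.72, lanosterol synthase Lss by -0.69, Mvd of the mevalonate branch by -0.57, fatty acid synthase Fasn by -0.57, the fat cell factor Cebpd by -0.54 and the desaturase Fads2 by -0.41. Lss was the one of these whose groups overlapped.

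The sterol response motif TCACNCCAC was found in 1 of 19 promoters, of 16 genes, of the cholesterol list (5.26%) and in 1.18% of all, so that most of the list holds no match of this spelling in the window. The single match lies in Hmgcs1, which makes the precursor of mevalonate, at chr13:119690174-119690273 (plus strand), in a window whose first base is at -177 relative to the gene's start.
Hmgcs1: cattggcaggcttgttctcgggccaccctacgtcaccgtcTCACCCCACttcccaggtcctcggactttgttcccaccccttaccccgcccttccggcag
Hmgcs1 had 10.06, 9.48, 10.32 and 10.74 at 72 hours and 10.11, 9.51, 9.64, 9.76 and 9.03 at 96 hours. The groups overlapped widely, and the change of -0.54 (SE 0.21, adjusted p = 0.077 from limma) no longer passed without replicate 1, 3 or 4 at 72 hours or replicate 2, 3 or 5 at 96 hours, with adjusted p up to 0.281.

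**Figure D5:**
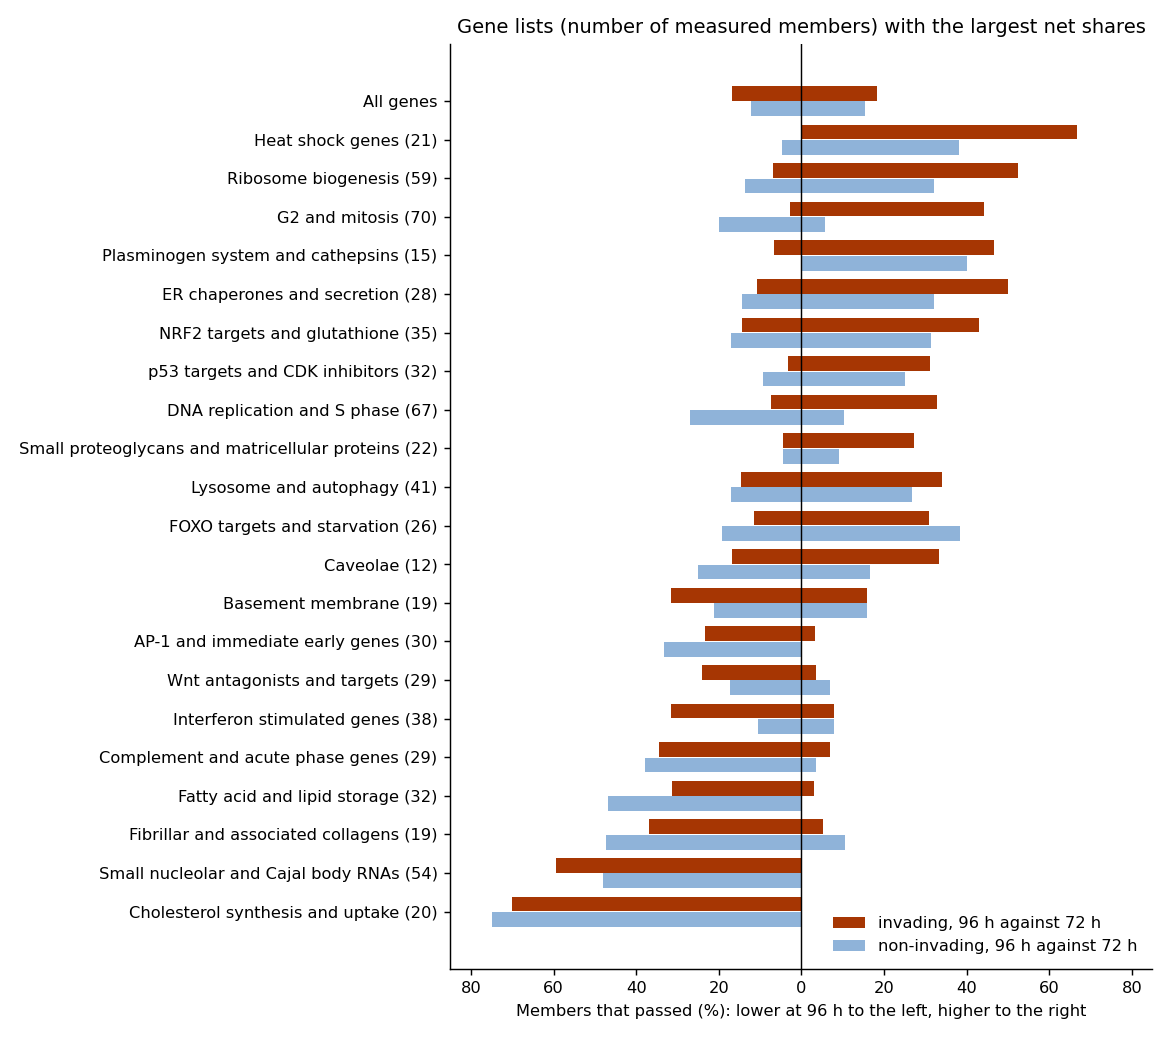
Share of the measured members of 21 gene lists and of all genes that passed (horizontal axis, %), lower at 96 hours to the left and higher to the right, for the invading and the non-invading fraction. The cholesterol list reaches 70% lower and the heat shock list 66.7% higher in the invading fraction, and the list of G2 and mitosis is 44.3% higher there while 20% of it is lower on top of the gel.

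Among genes that cut or protect the matrix, several cathepsins rose, whereas most metalloproteinases did not pass. Of 15 genes of the plasminogen system and the cathepsins 7 were higher and 1 lower (46.7% and 6.67%, median 0.22). Ctsh, a lysosomal cysteine protease, had 7.68, 8.07, 8.03 and 8.05 at 72 hours and 8.93, 8.96, 8.9, 8.79 and 9.13 at 96 hours. It rose by 0.99 (SE 0.1, adjusted p = 1.6e-06 from limma) with no overlap, and by 1.13 on top of the gel. Ctso rose by 0.6 and Ctsl, one of the brighter genes at 12.29 and 12.78, by 0.49. Of 14 matrix metalloproteinases 2 rose and 3 fell (14.3% and 21.4%, beside 18.2% and 16.7% of all genes), and all of the changes were small. Mmp8 changed by -0.48 and Mmp24 by -0.31, both from levels below the median gene, and Mmp16 by 0.23 (adjusted p = 0.123 from limma without invading 72h replicate 2).

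The inhibitor list of 16 genes gave 3 higher and 2 lower (18.8% and 12.5%, beside 18.2% and 16.7% of all genes). Pi15, a secreted trypsin inhibitor, went from 8.41, 8.11, 8.66 and 8.28 to 9.74, 9.32, 9.47, 9.46 and 9.25. Its rise of 1.08 (SE 0.14, adjusted p = 2.4e-05 from limma) was matched by 1.1 on top of the gel. Timp1, which blocks metalloproteinases, rose by 0.23 (SE 0.07, adjusted p = 0.016 from limma), with a change of -0.07 on top (difference adjusted p = 0.34). Lysosome and autophagy genes, the compartment of the cathepsins, were higher in 14 and lower in 6 of 41 cases (34.1% and 14.6%). In the brightest signal group 36.9% rose and 18.5% fell. The proton pump subunit Atp6v1h rose by 0.64, acid ceramidase Asah1 by 0.58 and the thioesterase Ppt1 by 0.56, while Wipi1, an early autophagy protein, changed by -0.46.

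Of 19 fibrillar and associated collagens 7 were lower, 1 was higher and 11 did not pass (36.8% lower, beside 16.7% of all genes, median -0.11), but 4 were lower without invading 72h replicate 1 or 2. Col1a1, a chain of type I collagen, had 12.3, 12.29, 12.3 and 12.02 at 72 hours and 11.92, 11.95, 12.04, 11.81 and 12.04 at 96 hours. Replicate 4 at 72 hours lay within the later range, and the change was -0.27 (SE 0.07, adjusted p = 0.0084 from limma). Col18a1 changed by -0.4 and Col8a2 by -0.3. Of 22 small proteoglycans and matricellular proteins 6 rose, Ogn at their head, and 1 fell (27.3% and 4.55%, beside 18.2% and 16.7% of all genes). The 6 went to 3 without invading 72h replicate 1 or without replicate 3 or 4 at 96 hours. Ccn3 (NOV), which binds integrins, rose by 0.56 (SE 0.17, adjusted p = 0.023 from limma), against -0.14 on top (difference adjusted p = 0.41).

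Elastic fibre genes and basement membrane genes were split, with 2 higher and 5 lower of 24 (3 lower without invading 72h replicate 1) and 3 higher and 6 lower of 19. The shares were 8.33% and 20.8% for the first and 15.8% and 31.6% for the second, beside 18.2% and 16.7% of all genes. Mfap4, a fibrillar glycoprotein bound to elastic fibres, rose by 0.79 (SE 0.15) and the laminin chain Lama2 by 0.76 (SE 0.14), while the latent TGF-beta binding protein Ltbp3 changed by -0.39, the fibulin Fbln2 by -0.37 and agrin (Agrn) by -0.38. Npnt, a ligand of integrin alpha 8, rose by 0.48 (adjusted p = 0.031 from limma, 0.11 without invading 72h replicate 1). Of 19 integrin subunits 4 rose and 2 fell (21.1% and 10.5%). Itga8, the receptor subunit for Npnt, rose by 0.69 (SE 0.17). Itga3, the alpha 3 chain of a laminin receptor, had 8.48, 8.52, 8.46 and 8.12 at 72 hours and 8.01, 7.59, 7.69, 7.6 and 7.88 at 96 hours. It fell by 0.64 (SE 0.12, adjusted p = 0.001 from limma), and Itga6, the alpha 6 chain, rose by 0.61 (SE 0.16, adjusted p = 0.011), so that 2 laminin-binding chains went in opposite directions. On top of the gel Itga6 changed by 0.03, and the difference did not pass (adjusted p = 0.51).

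Genes of the cytoskeleton and of invadopodia, the protrusions that dig into matrix, moved both ways. Of 31 invadopodia and branched actin genes 10 rose and 9 fell (32.3% and 29%, beside 36.9% and 18.5% of the brightest signal group). The adaptor Nck1 rose by 0.73, the scaffold Sh3pxd2a (TKS5) by 0.59 and the Arp2/3 subunit Arpc5 by 0.58, and the kinase Src changed by -0.56, each with SE of 0.07 to 0.1 and without overlap. Of 26 contractile genes of myofibroblasts 5 rose (19.2%, beside 18.2% of all genes and 36.9% of the brightest signal group) and 2 fell. The largest rises were those of the tropomyosins Tpm4 (0.44) and Tpm1 (0.31), caldesmon (Cald1, 0.35) and calponin 3 (Cnn3, 0.29). YAP and TAZ targets gave 4 higher and 5 lower of 25 (16% and 20%, beside 18.2% and 16.7% of all genes). The largest change was that of Arhgef17, a guanine nucleotide exchange factor (-0.69, SE 0.07), and the 5 went to 3 without invading 72h replicate 4.

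Of 30 AP-1 and immediate early genes 7 fell and 1 rose (23.3% and 3.33%, beside 16.7% and 18.2% of all genes). Atf3, the stress-induced factor that rose, had 6.93, 7.09, 7.01 and 7.44 at 72 hours and 7.56, 9.03, 8.19, 8.58 and 7.38 at 96 hours. The later samples were spread widely and 1 of them lay within the earlier range, so the rise of 1.03 had a wide error (SE 0.27, adjusted p = 0.01 from limma). Junb changed by -0.55, Klf2 by -0.46 and the serum response factor Srf by -0.42.

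Of 29 complement and acute phase genes 10 fell and 2 rose (34.5% and 6.9%, beside 16.7% and 18.2% of all genes). Hp (haptoglobin), a scavenger of free haemoglobin, stood at 8.7, 8.08, 8.41 and 7.68 at 72 hours and at 7.78, 6.72, 6.72, 6.84 and 6.9 at 96 hours. Replicate 1 at 96 hours lay above the other 4 and within the earlier range, and the change was -1.23 (SE 0.25, adjusted p = 0.0015 from limma). Lcn2 (lipocalin 2), which binds bacterial siderophores, had 7.62, 7.13, 7.88 and 7.96 at 72 hours and 6.36, 6.71, 6.89, 6.75 and 6.38 at 96 hours. It changed by -1.03 (SE 0.23, adjusted p = 0.0031 from limma) without overlap, and by -1.7 on top of the gel. The acute phase protein Saa3, very bright at 12.82 and 12.27, changed by -0.55 and the receptor Tlr2 by -0.43.

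Of 38 interferon stimulated genes 12 were lower and 3 higher (31.6% and 7.89%, beside 16.7% and 18.2% of all genes), but 6 were lower without invading 96h replicate 1. The nucleic acid sensor Zbp1 changed by -0.69 (SE 0.12) and Dhx58, a relative of RIG-I, by -0.56 (SE 0.16), while the kinase Eif2ak2 (PKR), which halts translation, rose by 0.65 (SE 0.11). Of 36 chemokines and cytokines 6 fell, the same share as of all genes (16.7%), and 2 rose, with 3 lower once invading 72h replicate 4 was left out. Ccl17 was one of the 2 that rose (0.38, SE 0.09, adjusted p = 0.0052 from limma).

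Of 24 genes of TGF-beta signalling 4 rose and 4 fell (16.7% each, beside 18.2% and 16.7% of all genes), with 2 lower without invading 72h replicate 1 or 2. Tgfb1, a ligand that drives matrix production, had 10.59, 10.71, 10.41 and 10.32 at 72 hours and 9.91, 10.18, 10.1, 10.11 and 10.15 at 96 hours. It changed by -0.42 (SE 0.09, adjusted p = 0.0033 from limma) without overlap and by -0.87 on top of the gel (difference adjusted p = 0.32). Its receptor Tgfbr1 rose by 0.34 (SE 0.09), Tgfbr2 had a difference of -0.08 (SE 0.07, adjusted p = 0.46) and the signal carrier Smad2 rose by 0.41 (SE 0.06). Mmp13, a collagenase, stood at 9.52, 9.67, 9.68 and 9.89 at 72 hours and at 9.32, 10.17, 9.7, 9.88 and 9.6 at 96 hours. The groups overlapped, with a difference of 0.04 (SE 0.19, adjusted p = 0.91 from limma), while the cells on top had a change of -1 (difference between fractions 1.04, SE 0.26, adjusted p = 0.27).

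Sfrp1, a secreted Wnt antagonist, changed by -0.54 (SE 0.19, adjusted p = 0.042 from limma), which became 0.119 without invading 72h replicate 4 and 0.109 without invading 96h replicate 1. The Wnt list of 29 genes had 7 lower (24.1%, beside 16.7% of all genes) and 1 higher (3.45%, beside 18.2%). The 7 went to 4 without invading 96h replicate 1. Sfrp2 in this list changed by -0.32. Caveolin 1 (Cav1) differed by -0.11 (SE 0.1), the receptors Egfr by -0.05, Fgfr2 by 0.09, Pdgfra by 0.14 and Pdgfrb by -0.06, each with SE of 0.07 or 0.08 and none past the test, and Fgfr1 changed by -0.25 (adjusted p = 0.0083 from limma). Of the 11 genes in this group 1 rose and 3 fell (9.09% and 27.3%, beside 18.2% and 16.7% of all genes). Among 34 growth factors and receptors 4 rose and 5 fell, with 2 higher without replicate 2 or 4 at 72 hours or replicate 3 at 96 hours. The ligands Pdgfc and Fgf2 rose by 0.52 and 0.47; the adjusted p of Pdgfc went from 0.029 to 0.116 without invading 72h replicate 4. Beside 18.2% higher and 16.7% lower among all genes, members passed in the lists of BMP signalling (3 higher, 2 lower of 23), the IGF axis (1 and 2 of 17), hyaluronan (2 and 0 of 13), caveolae (4 and 2 of 12, with 1 higher without invading 72h replicate 1 and 2 without replicate 4 at 72 hours or replicate 3 or 5 at 96 hours) and lung mesenchyme factors (3 and 8 of 34).

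Metabolic and clock genes were mixed, where 18.2% of all genes rose and 16.7% fell. Of 81 respiratory chain genes 21 rose and 17 fell (25.9% and 21%, beside 36.9% and 18.5% of the brightest signal group). The assembly factor Ndufaf1 rose by 0.89 (SE 0.07), the complex I subunit Ndufs1 by 0.57 and Uqcrb of complex III by 0.51, and Ndufa7 changed by -0.56. Glycolysis and hypoxia genes gave 4 higher and 2 lower of 33 (12.1% and 6.06%), with Pfkp at 0.31 and hexokinase 1 (Hk1) at 0.18. Of 26 FOXO targets and starvation genes 8 rose and 3 fell (30.8% and 11.5%, beside 32.5% and 20.5% of the second brightest signal group). The insulin receptor Insr changed by 0.72, Ccng2 by 0.52, Hbp1 by 0.35 and Foxo3 itself by -0.3. The clock list had 5 of 19 higher and 4 lower (26.3% and 21.1%). Nfil3, a repressor of the clock and of immune genes, changed by -0.73 (SE 0.08, adjusted p = 4.5e-06 from limma), Per1 by -0.37, Rora by 0.51 and Clock by 0.49; the 5 went to 3 without replicate 1 or 2 at 72 hours or replicate 1, 2 or 3 at 96 hours.

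MicroRNAs are short RNAs that pair with target RNAs through the seed, bases 2 to 8. Of 296 microRNA loci on the array 13 were higher and 44 lower at 96 hours (4.39% and 14.9%, median -0.06). Their median signal at 72 hours was 5.12, close to the dimmer of the signal groups above. Among all genes 18.2% were higher and 16.7% lower. In the dimmest signal group the shares were 1.23% and 11.4%, and in the next 2.98% and 15%, so the share that fell was near the background. The 13 went to 7 without replicate 1 at 72 hours, 8 without replicate 4 at 72 hours and 7 without replicate 1 at 96 hours. On top of the gel 31 were higher and 21 lower. A mature sequence was found in RefSeq for 270 of the loci. To identify the loci that changed most, the mature sequences of the 4 largest changes that passed are printed with the seed in capitals. They lie at chr14:73206808-73206829 (minus strand), chr3:69009775-69009796 and chr3:69009813-69009834 (plus), chr2:38853845-38853868 and chr2:38853883-38853904 (plus), and chr16:18327405-18327425 (minus), in this order.
mmu-miR-687: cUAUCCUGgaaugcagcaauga
mmu-miR-15b-5p: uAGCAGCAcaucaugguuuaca
mmu-miR-15b-3p: cGAAUCAUuauuugcugcucua
mmu-miR-181b-5p: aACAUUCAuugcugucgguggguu
mmu-miR-181b-2-3p: cUCACUGAucaaugaaugcaaa
mmu-miR-185-3p: aGGGGCUGgcuuuccucuggu
No seed was shared among the 6. Mir687 had 4.69, 4.52, 4.64 and 4.64 at 72 hours and 5.44, 5.57, 5.4, 5.4 and 5.29 at 96 hours. It rose by 0.8 (SE 0.11, adjusted p = 3.1e-05 from limma) from a very dim signal. Mir185 had 7.92, 8.18, 7.8 and 8.27 at 72 hours and 7.3, 7.58, 7.42, 7.43 and 7.48 at 96 hours. It changed by -0.6 (SE 0.11, adjusted p = 0.00056 from limma) with no overlap, against -0.17 on top (difference adjusted p = 0.42). Mir15b and Mir181b-2 rose by 0.65 (SE 0.23) and 0.63 (SE 0.24) with overlapping groups. Mir15b did not pass without replicate 1 or 4 at 72 hours or replicate 1 at 96 hours (adjusted p 0.124 to 0.175), and Mir181b-2 did not pass without replicate 1, 2 or 4 at 72 hours or replicate 1 at 96 hours (adjusted p 0.138 to 0.15). The array does not separate a mature microRNA from its precursor, so these values belong to the locus.

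In 2 large families of similar genes, picked after their values were seen, more members rose than fell. Among all genes 18.2% were higher and 16.7% lower in the gel, and 15.4% and 12.2% on top of it. Of 350 zinc finger genes with a Zfp symbol, most of them DNA-binding repressors, 148 were higher and 49 lower in the gel (42.3% and 14%), and 146 and 38 on top of it. Of 22 clustered beta protocadherins, adhesion proteins encoded side by side, 12 were higher and 0 lower, and 12 and 1 on top. Members of both families resemble each other in sequence, and how far probes are shared was not tested.

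Many of the changes with time were called in both fractions. On top of the gel 3071 genes were higher at 96 hours (15.4%) and 2424 lower (12.2%). Of the 3622 genes that rose in the gel 68.6% also rose on top, which is 80.9% of those that rose there, and of the 3320 that fell 46.7% also fell on top, which is 63.9% of those that fell there. For the unnamed probe sets with low numbers on the array, which carry no symbol here, the median change was 0.03 in the gel and 0.11 on top.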

How the data were processed

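The values used are the log2 signals that the authors deposited for 18 arrays, 35556 probe sets each, background corrected, sketch-quantile normalized and summarized by RMA (submitters' processing notes: Affymetrix Expression Console 1.2). These values run from 2.94 to 14.7 and were used without further change; no columns of other samples or of the authors' own comparisons were used. RNA was extracted with a kit that keeps small RNAs. Symbols came from the platform annotation: 21789 probe sets carry 1 symbol, 1621 several and 12146 none, and 21698 of the first matched RefSeq by gene number. Of the probe sets without a symbol, 6617 have low numbers.

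All 18 samples entered 1 fit of 4 group means in limma 3.58.1 (R 4.3.3), with contrasts for 96 against 72 hours in each fraction and for the difference between them, adjusted by Benjamini and Hochberg over all probe sets. The fit was tested on simulated data. p-values rest on the spread between these samples, and the number of arrays limits precision.

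Named genes were the 12 highest and 12 lowest changes without overlap, up to 4 members per list by size, the genes the study followed by other methods, and those that passed for the difference. Members, lists, motifs and tests were chosen with earlier results of these data known; the zinc finger, protocadherin and histone lists were added after the values were seen. The lists are described by counts and medians, with no test of a list. Replicate numbers did not pair the 2 times: after removal of group means, samples of the same number correlated at -0.058 to 0.059 over genes between invading 72 and 96 hours, and in 0 of 4 cases best with their own number. Between the fractions they correlated at 0.146 to 0.305 at 96 hours (5 of 5 best with their own) and at -0.019 to 0.086 at 72 hours (1 of 4).

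Alternatives covered the samples fitted, the replicate block, 3 further normalizations, a signal filter, the probe sets tested, the variance model, the threshold, averaging of probe sets, leaving out each sample, and, added after the data were seen, leaving out the unnamed low-numbered probe sets.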

Additional observations from a re-analysis of the deposited data

Results flagged for a closer look

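The change with time differed between the fractions, by the test of the difference, for 3 genes: 0.59 for Sarnp, 0.57 for Gtpbp4 and 0.45 for Pdcl (log2, invading minus non-invading), all with a steeper rise in the gel. With the replicate number as a block, 0 genes passed. That block spanned both fractions and both times, so it did not treat the pairing of the fractions at 96 hours alone.

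In 19 of 298 pairs of a named gene and an invading group 1 sample stood apart from the rest by Dixon's criterion, which chance gives in about 1 of 20. At 72 hours, replicate 1 was low in Snord118 (9.74, others 11.59 to 11.88), Snora33 (10.08, others 11.33 to 11.51), Sfrp1 (9.33, others 9.81 to 9.91) and Ctsh (7.68, others 8.03 to 8.07). Replicate 4 was low in Col1a1 (12.02), Hspd1 (11.05) and Itga3 (8.12), and replicate 3 was high in Mir181b-2 (6.45) and low in Rpl13 (11.46). At 96 hours, replicate 1 was high in Hp (7.78, others 6.72 to 6.9), Fasn (11.06), Srebf2 (10.01), Egfr (11.02) and Mir181b-2 (7.23) and low in Tgfb1 (9.91). Replicate 2 was high in Spc25 (8.87) and Prim1 (9.66), replicate 4 low in Ctsl (12.65) and replicate 5 low in Rora (8.66). Replicate 1 at 96 hours was the sample apart in 6 of the 19 cases, and the cause was not tested.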

How the results depend on the processing

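The counts of genes that passed in the invading fraction kept within 1.5 times of 6942 in total, 3622 higher and 3320 lower under all alternatives but one: a fit of only the 9 invading samples with a replicate block gave 1965 lower genes, and Ccn3, Col8a2, Gsta3, Hk1, Lyz2, Per1, Timp1, Hmgcs1, Mir15b and Mir181b-2 did not pass in it (adjusted p 0.101 to 0.227 from limma). For ribosomal proteins that fit gave 1 higher in place of 11. Without the block, a fit of only the 9 invading samples gave 3378 higher and 2868 lower genes. Hmgcs1 (adjusted p = 0.173 from limma) and Mir15b (0.123) did not pass in that one. Quantile normalization applied again gave 129 genes lower by over 1.5-fold in place of 77. Leaving out single samples gave 5802 to 7063 genes in all, 3227 to 3650 higher, 2575 to 3436 lower, 475 to 705 higher and 74 to 103 lower by over 1.5-fold, and 5103 to 6097 without overlap. The share of higher among called genes lay between 45.3% and 60.3% over the scalings. The 3 genes for the difference between fractions became 0 with the replicate block in all samples, with centring on the median of genes, with 1-symbol probe sets or at an adjusted p under 0.05, 11 with median centring or without the unnamed low-numbered probe sets, 15 with the signal filter, 16 with trend and robust estimation, and 0 to 16 without single samples (16 without invading 72h replicate 3 or invading 96h replicate 5). The cause was not tested. The replicate block over all samples gave 6748 genes for the invading comparison. Mmp13 turned to -0.025 with quantile normalization again, -0.017 without invading 72h replicate 1 and -0.069 without invading 96h replicate 2, with a range of -0.069 to 0.144 without single samples.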
